A study of Mus musculus with 6 samples.

Results

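A set of 9 genes that balance clot formation against clot removal at the cell surface was followed in mouse cells labelled as lymphatic endothelial cells: F3, Thbd, Procr, Tfpi, Plat, Plau, Plaur, Anxa2 and S100a10. They were chosen by symbol, as known regulators of coagulation and fibrinolysis, with earlier results of these data known. Of these genes 9 of 9 are among the 15528 symbols of the count table. The 6 libraries form a control group of 3, labelled only as control, and a group of 3 treated with red blood cells, both taken at 24 h. The title of the series concerns bleeding into the subarachnoid space and the lymph nodes of the neck in mice. The strain, the age and sex of the donors, the source and dose of the red blood cells, the passage or clone of the cells and the origin of each replicate are not stated in the labels. No label says that replicates were separate cultures, so the p-values rest on a spread among libraries that could be technical.

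Coagulation starts when tissue factor, the product of F3, meets plasma factor VII, and it is restrained by tissue factor pathway inhibitor (Tfpi) and by the protein C pathway, in which thrombomodulin (Thbd) binds thrombin and the endothelial protein C receptor (Procr) presents protein C. Fibrin is removed by plasmin, which is cut from plasminogen by tissue-type activator (Plat) or urokinase (Plau). Urokinase is held at the surface by its receptor (Plaur), and the complex of annexin A2 (Anxa2) and S100a10 is known as a surface assembly site for plasminogen and tissue-type activator. Endothelium is known for making most of these proteins and for shifting toward clotting when it is inflamed.

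None of the 8 members with enough counts to be tested changed past the threshold when red blood cells were present, and the ninth, Plau, was all but absent in both groups. The nearest was F3, 1.24-fold lower with red blood cells, with an adjusted p of 0.089 in edgeR's quasi-likelihood test (Benjamini-Hochberg over 11208 tested genes; a gene is called under 0.05). Across the tested genes 1.46% were called, 1.16% higher and 0.303% lower, so 0 of 8 members is near that background. DESeq2 called 1 member and limma voom 0. At an unadjusted p under 0.05 there were 3 members, F3, Plat and S100a10, with lower means in the treated libraries, beside 4.58% of all tested genes. In a bulk sample fewer cells of a type and less RNA per cell cannot be told apart. The log2 fold changes of the 8 members had a median of -0.09, beside -0.0027 over all tested genes. Without control replicate 2 the median of the members was -0.02, and with an offset for gene length it was -0.04.

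Total counts ran from 17263359 to 18381419 per library, and 3 counts in 1 library correspond to between 0.163 and 0.174 CPM (counts scaled to the library total). Of the defining endothelial markers, Kdr had 0 and Cdh5 7 counts over the 3 control libraries, and Pecam1 had 14.98 ± 1.88 CPM there (SD, n = 3). Prox1 and Lyve1, which define lymphatic endothelium, were looked up and are not among the symbols of the count table. Of the other pan-endothelial markers in the table, Eng had 99.3 ± 8.19 and Egfl7 4.11 ± 0.08 CPM in the controls. Tek, Vwf and Esam had 3, 8 and 7 counts over the control libraries. The endothelial markers were thus mixed, and the identity is taken from the label. The 8 lymphatic endothelial markers in the table summed to 399.6 to 503 CPM in the controls and 562 to 594 CPM with red blood cells, and of 4 tested 1 was called, higher (Stab1). Most of that difference in the sum lay in Nrp2 (272 ± 52.5 and 361 ± 16.1 CPM), while Nr2f2 was at 161 ± 1.38 and 146 ± 3.46 CPM. Flt4 was at 3.62 ± 0.73 and 3.52 ± 0.59 CPM, and Pdpn, Sox18, Itga9 and Reln were at or near 0. The 7 epithelial and mesothelial markers in the table summed to 645 to 722 and 602 to 623 CPM, without overlap, with Krt8 at 448 ± 34.3 and 389.6 ± 6.65 CPM, Msln at 187 ± 1.96 and 190.2 ± 3.50 CPM, and 0 of 3 tested called. The 7 fibroblast and mural markers in the table summed to 442 to 492 and 451 to 469 CPM, with 0 of 2 tested called. Summed over 8 erythroid markers the libraries held 39.8 to 44.6 CPM in the controls and 579 to 666 CPM with red blood cells. Bpgm, which other cells also express, made up 37.0 to 41.7 CPM of the control sums, and the 4 globin genes and Alas2 rose between 121-fold and 218-fold from means of 0.17 to 1.52 CPM. The 6 platelet markers in the table summed to 1.51 to 2.12 and 1.94 to 2.61 CPM, and Pf4, a defining platelet transcript, had 0 and 1 counts. Of 2 tested platelet markers 0 were called. Ppbp had 29 and 62 counts over the groups, with each treated library above each control (log2 fold change 1.07, edgeR adjusted p = 0.32). Gp1bb had 44 and 40 counts, with overlap (log2 fold change -0.16). For 9 leukocyte markers the sums were 42.1 to 48.4 and 49.8 to 54.3 CPM, with Ptprc at 0 and 36 counts over the groups. Of 6 tested 4 were called higher and 0 lower, with a median log2 fold change of 4.55. Csf1r made up 22.0 to 27.3 CPM of the control sums. The part of these blood cells and of the other marker lists in the members' values was not tested.

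The level per transcript length, in FPKM (fragments per kilobase of gene model, scaled to the library total), differed widely between the members. In the controls Anxa2 was at 877 ± 65.4 FPKM and S100a10 at 646 ± 104 FPKM (SD, n = 3). Plaur followed with 85.3 ± 9.99, F3 with 51.5 ± 4.22, Thbd with 40.9 ± 0.62 and Procr with 19.6 ± 1.06 FPKM. Plat with 15.1 ± 0.77 and Tfpi with 14.1 ± 0.53 FPKM came last among the tested members, and their control libraries overlapped (14.3 to 15.8 and 13.7 to 14.7 FPKM). No other neighbours in this order overlapped in the controls. With red blood cells the order differed in 2 places. F3 at 41.5 ± 0.99 FPKM now overlapped Thbd at 42.5 ± 0.53 FPKM, and Tfpi at 14.8 ± 0.73 FPKM lay above Plat at 12.9 ± 0.11 FPKM without overlap. The F3 to Thbd ratio is tested with the other ratios, and the order of Tfpi and Plat was not tested.

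**Figure D1:**
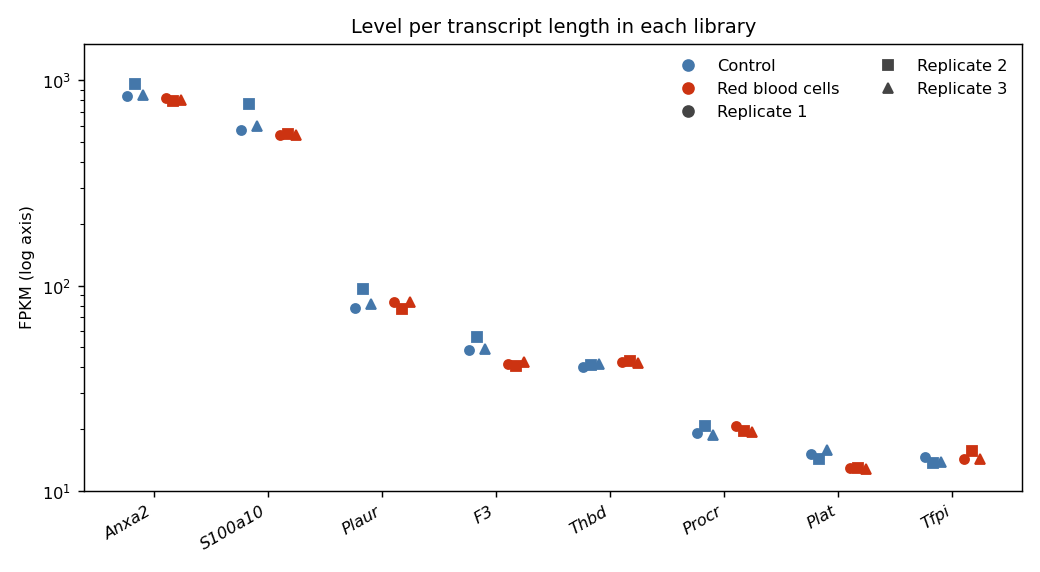
Level per transcript length in FPKM (log axis) of the 8 tested members; blue points are the 3 control libraries, red points the 3 libraries with red blood cells, and the marker shape gives the replicate. Anxa2 and S100a10 lie above 500 FPKM, F3 and Thbd between 40 and 57 FPKM, and the F3 points with red blood cells come down to those of Thbd.

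The stretch in front of the start site is shown for 4 members because it holds the same short motif in each. RefSeq promoter windows (GRCm38.p6) matched 5 of the 9 members by symbol, F3, Procr, Plaur, Anxa2 and Tfpi, the last with 2 windows. In the 250 bases before the start site, on either strand, the AP-1 motif TGACTCA or its reverse complement TGAGTCA was found in 4 of these 5 genes. It was found in 4.46% of all 32851 windows and in 4.10% of 9024 tested genes with a window. The first base of the match lay 135 bases before the start site in F3, 69 in Plaur, 95 in Anxa2 and 154 in Procr. Below, capitals mark this motif and, in F3 alone, also GGGCGG or its reverse complement, the box bound by SP factors. The F3 stretch is the whole 250 bases, and the others are the motif with 25 bases on each side. Each is read 5′ to 3′ on the + strand of GRCm38.p6, which is not the build of the deposited tables.
F3 (chr3:121723287-121723536): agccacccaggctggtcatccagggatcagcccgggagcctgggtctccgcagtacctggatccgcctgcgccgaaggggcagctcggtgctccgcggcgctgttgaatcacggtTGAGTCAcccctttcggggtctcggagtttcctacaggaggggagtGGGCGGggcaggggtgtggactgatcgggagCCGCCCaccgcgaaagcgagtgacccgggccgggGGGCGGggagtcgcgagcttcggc
Plaur (chr7:24462389-24462445): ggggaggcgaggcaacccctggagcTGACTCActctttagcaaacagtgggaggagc
Anxa2 (chr9:69453563-69453619): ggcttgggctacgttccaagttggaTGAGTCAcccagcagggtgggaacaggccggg
Procr (chr2:155751038-155751094): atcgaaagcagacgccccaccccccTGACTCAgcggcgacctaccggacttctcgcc

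Other motifs were looked for in the same windows. GGGCGG was found in 4 of the 5 genes (Anxa2, F3, Plaur, Tfpi) and in 65.5% of the tested genes, and TATAAA in Anxa2 and Tfpi and in 7.46% of the tested genes. The EGR motif GCGTGGGCG or GCGGGGGCG was found in Plaur, where it overlaps 2 of the 3 GGGCGG matches, and in 6.94% of the tested genes. The kappa B motif of NF-kB factors was searched only as GGGRNWYYCC (R is A or G, W is A or T, Y is C or T, N is any base). This form was found in 0 of the 5 and in 5.32% of the tested genes. Sites that depart from it were not searched, so the members may hold such sites. These matches describe the letters of the windows and say nothing of binding.

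F3 encodes tissue factor, the trigger of coagulation. Its control libraries 1 to 3 had 91.7, 106 and 92.4 CPM and the libraries with red blood cells 77.9, 76.0 and 79.7 CPM. The groups did not overlap, and control replicate 2 was the highest of the 6. Its log2 fold change was -0.31 ± 0.07 SE (95% interval -0.47 to -0.15). F3 was lower in each treated library than in each control, yet the adjusted p of 0.089 leaves it outside the calls, at place 217 of 11208 by p. Without control replicate 2 the log2 fold change was -0.24 with an adjusted p of 3.9e-05 in edgeR. The direction was the same in 19 of 19 other settings, and F3 was called in 4 of them.

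The restraints on tissue factor and thrombin stayed close to their control levels. Tfpi, the inhibitor of tissue factor and factor VII, had 59.6, 55.6 and 56.2 CPM in the controls and 58.4, 63.3 and 58.0 CPM in the treated libraries, which overlap. Its 95% interval spanned 0.952-fold to 1.16-fold. Thbd, the thrombin receptor thrombomodulin, had 149.6, 153 and 154 CPM in the controls and 157, 160.1 and 156 CPM with red blood cells. Its groups did not overlap, the treated libraries being higher by a log2 fold change of 0.05 ± 0.05 SE, and the interval reached from 0.959-fold to 1.12-fold. Procr, the protein C receptor, had 47.6, 51.6 and 46.6 CPM and then 51.5, 48.8 and 47.9 CPM, with overlap and an interval of 0.92-fold to 1.12-fold. The adjusted p in edgeR was 0.70, 0.72 and 0.90 for Tfpi, Thbd and Procr. The intervals of these 3 genes reached no further than 0.92-fold down and 1.16-fold up, which does not show that the levels were equal.

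Plat and Plau, the plasminogen activators, differed in whether they were expressed. Plat had 40.4, 37.97 and 42.0 CPM in the controls and 34.5, 34.3 and 33.9 CPM with red blood cells, so that each treated library lay under each control. Its log2 fold change was -0.23 ± 0.06 SE (95% interval -0.37 to -0.09; edgeR adjusted p = 0.18), and -0.27 with an adjusted p of 0.00076 without control replicate 2. Plau, which encodes urokinase, had 1, 0 and 0 counts in the controls and 0, 2 and 0 counts in the treated libraries. A count of 0 allows up to 0.174 CPM in the shallowest library, both groups are at or under a floor of 3 counts, and no fold is given.

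Plaur, the urokinase receptor, was abundant although its ligand was not detectable above this floor. It had 121, 151 and 127 CPM in the controls and 130.3, 120.0 and 130.4 CPM in the treated libraries, which overlap widely. Control replicate 2 was again the highest library. The log2 fold change was -0.07 ± 0.09 SE (95% interval -0.26 to 0.13; edgeR adjusted p = 0.79), and it was 0.03 without control replicate 2. No direction can be given for Plaur.

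Anxa2 and S100a10, the partners of the annexin A2 complex, had the highest levels. Anxa2 was at 1499, 1714 and 1523 CPM in the controls and at 1474, 1428 and 1444 CPM with red blood cells, which placed it above 99.8% of the tested genes by mean CPM. S100a10 was at 372, 497 and 389.7 CPM and then at 351, 357 and 353 CPM. In both genes the groups did not overlap, the treated libraries lay close together, and control replicate 2 stood well above the other controls. The log2 fold changes were -0.12 ± 0.07 SE for Anxa2 and -0.25 ± 0.10 SE for S100a10, with adjusted p of 0.58 and 0.45 in edgeR. Without control replicate 2 the S100a10 value was -0.11 with an adjusted p of 0.021, and that of Anxa2 was -0.06 with an adjusted p of 0.22.

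**Figure D2:**
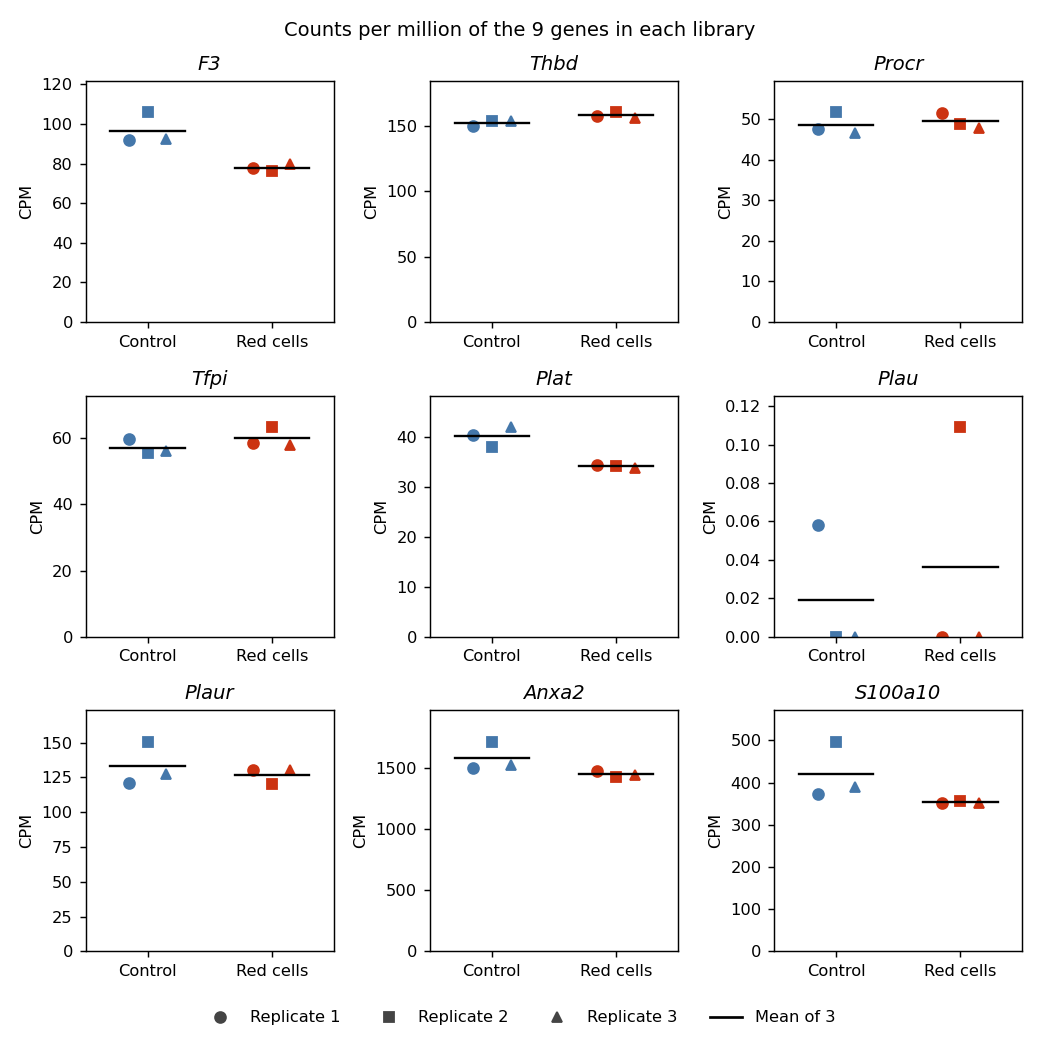
Counts scaled to the library total (CPM) of each of the 9 genes in every library, with control libraries in blue and libraries with red blood cells in red; the marker shape gives the replicate, the black line is the mean of 3, and each axis starts at 0. F3, Plat, Anxa2 and S100a10 have each treated point under each control point, Thbd has each above, Plau has 3 counts in all, and control replicate 2 is the highest control in F3, Procr, Plaur, Anxa2 and S100a10.

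Of the 8 tested members 4 lay below the controls in each treated library (F3, Plat, Anxa2, S100a10) and 1 lay above (Thbd). The same separation held for 9.19% of all tested genes downward and 10.4% upward. In 3 of these 4 lower members control replicate 2 was the highest control, and in Plat it was the lowest.

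Control replicate 2 departed from the other controls along gene length, and the members followed it. Among all tested genes its log2 CPM minus the mean of control replicates 1 and 3 had a median of 0.21 in the shortest of 4 equal classes of gene models (up to 2189 bases) and of -0.24 in the longest (from 5807 bases). S100a10, with the shortest model among the members (650 bases), was 0.38 higher in that library, Plaur (1559 bases) 0.28, F3 (1876 bases) 0.20 and Anxa2 (1799 bases) 0.18. Procr (2482 bases) was 0.13 higher and Thbd (3718 bases) 0.01, while Tfpi (4058 bases) stood at -0.06 and Plat (2657 bases) at -0.12. The short members were thus the high ones in this library, and Plat was the exception to that order.

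**Figure D3:**
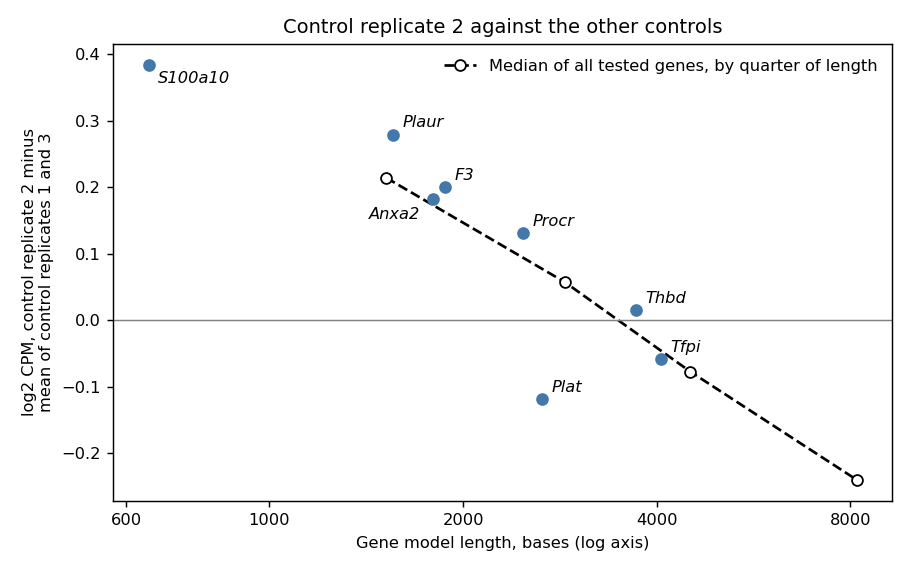
Difference in log2 CPM between control replicate 2 and the mean of control replicates 1 and 3 (vertical) against gene model length in bases (horizontal, log axis) for the 8 tested members in blue; open circles joined by a dashed line are the medians of all tested genes in 4 equal classes of length. S100a10, at 650 bases, is highest at 0.38, and the members come down with length to -0.06 for Tfpi, with Plat at -0.12 under the line.

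In 4 of 19 other settings between 1 and 3 members passed, with lower values in the treated libraries. Without control replicate 2 there were 3 called lower, F3, Plat and S100a10, where 3.77% of 11297 tested genes were called lower and 4.19% higher. With an offset for each library's trend with gene length F3 was called lower (log2 fold change -0.26 ± 0.04 SE, edgeR adjusted p = 0.0082), beside 1.08% of genes. The S100a10 value in that fit was -0.12, about that without the library. limma voom with library weights called F3 and Plat lower, beside 2.58% of genes, and DESeq2 with 6 libraries called F3 lower (adjusted p = 0.024), beside 0.437%. Leaving out any other single library gave 0 called members. With 1 library left out F3 stayed between -0.35 and -0.24, while its adjusted p in edgeR ran from 3.9e-05 without control replicate 2 to 0.46 without treated replicate 2.

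**Figure D4:**
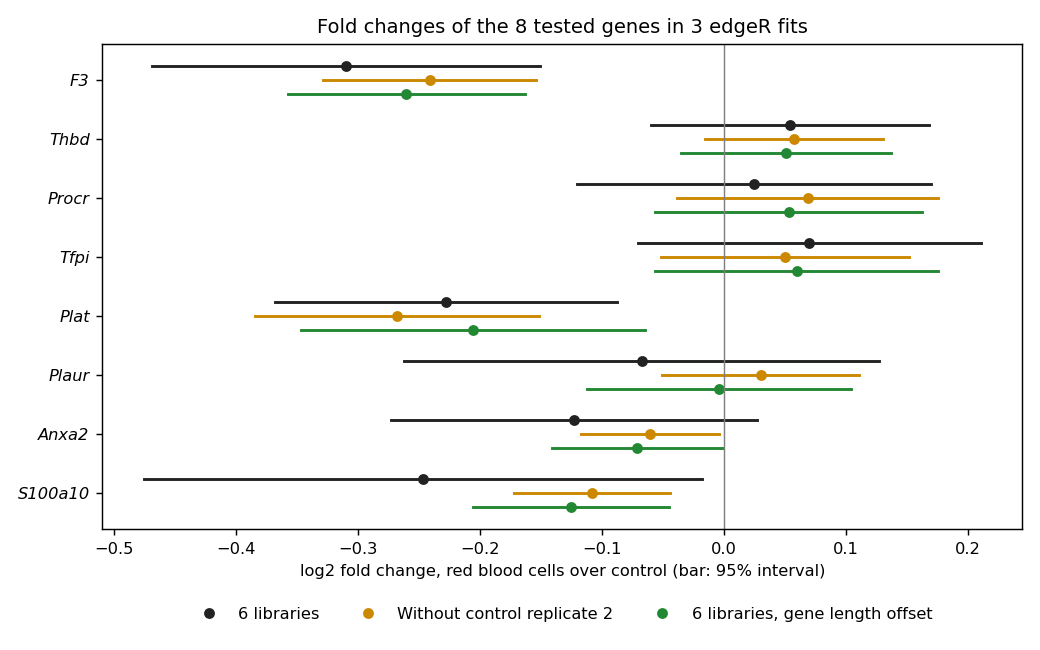
log2 fold change (horizontal; red blood cells over control) of the 8 tested members with 95% intervals, from edgeR with 6 libraries in black, without control replicate 2 in orange and with the gene length offset in green. The intervals of F3, Plat and S100a10 lie left of 0 in each fit. The points of Thbd, Procr and Tfpi lie within 0.1 of 0 in each fit, and their intervals include 0. The S100a10 point moves from -0.25 to -0.11 and its interval narrows when the library is left out.

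The balance between opposed products was measured as the ratio of 2 genes within a library, for 7 pairs of which 5 could be formed, since Plau was at 0 in some libraries. The ratio of F3 to its inhibitor Tfpi lay between 3.33 and 4.11 in the controls and between 2.60 and 2.98 in the treated libraries. The ratio of F3 to Thbd lay between 1.19 and 1.37 in the controls and between 0.941 and 1.01 with red blood cells. Neither pair overlapped between the groups, with mean differences of -0.38 and -0.36 on the log2 scale. The exact two-sided permutation test gave p = 0.10 for both, the smallest that 3 against 3 libraries allow, and 0.25 after adjustment over 5 pairs, so neither can pass 0.05 in this design. Both ratios carry the F3 values already given.

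The ratio of Anxa2 to S100a10 lay between 1.25 and 1.45 in the controls and between 1.45 and 1.52 in the treated libraries, which just overlap (exact permutation p = 0.20, adjusted 0.25), with control replicate 2 the lowest. That of Thbd to Procr lay between 1.98 and 2.20 and between 2.04 and 2.19 (exact permutation p = 0.70, adjusted 0.70).

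**Figure D5:**
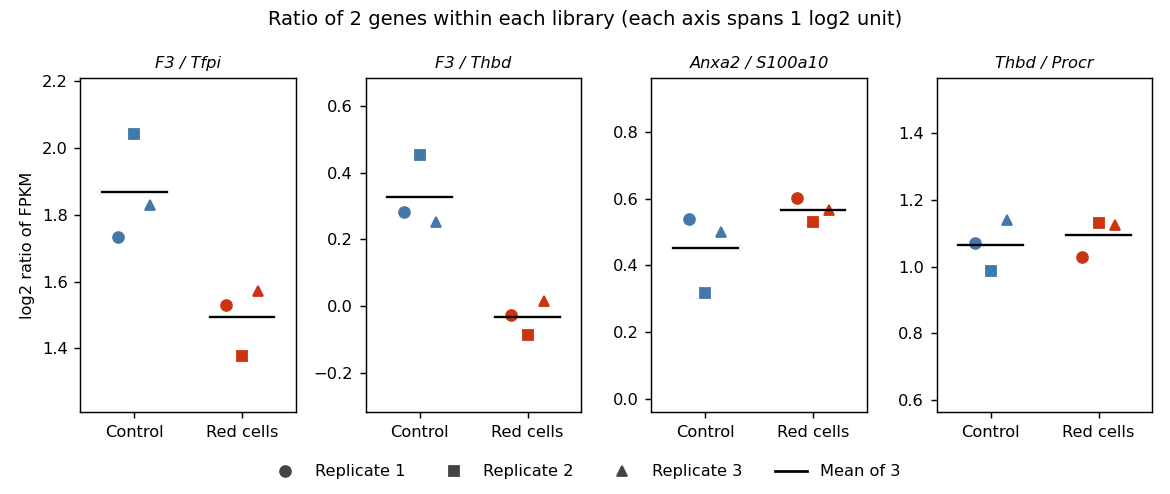
log2 ratio of the FPKM of 2 genes within each library for 4 pairs (vertical; each panel spans 1 log2 unit), with controls in blue, libraries with red blood cells in red and the mean of 3 as a black line. The treated points lie under the control points for F3 over Tfpi and F3 over Thbd, and the groups overlap for the other 2 pairs.

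The wider cascade was mostly not detected or gave no calls. Of 16 coagulation factors and cofactors, genes whose products circulate in plasma, 8 are in the table and 2 were tested, F8 with 1.91 ± 0.97 and 2.19 ± 0.19 CPM and the fibrin crosslinker F13a1 with 0.51 ± 0.15 and 0.63 ± 0.31 CPM, neither called. F10, the factor activated by tissue factor and factor VII, had 0 and 7 counts over the groups and F7 had 3 and 3. Genes of the vitamin K cycle and factor secretion gave 0 calls in 5 tested, among them Vkorc1l1, a vitamin K epoxide reductase (80.5 ± 2.61 and 84.1 ± 2.95 CPM), and Lman1 and Mcfd2, the pair that carries factors V and VIII out of the endoplasmic reticulum (log2 fold changes 0.04 and -0.04). Mcfd2 had 0.0040 without control replicate 2, and F8 had -0.04 in place of 0.20. Among 7 tested genes of phosphatidylserine exposure, the lipid signal on which clotting factors assemble, 0 were called. The phospholipid scramblases Plscr1 and Plscr3 had log2 fold changes of 0.23 and -0.14 and Tmem30a, a flippase subunit, had -0.11. Plscr1 was called higher without control replicate 2 (0.29, edgeR adjusted p = 0.011).

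Other anticoagulant genes gave 0 calls in 3 tested, with a median log2 fold change of -0.08. These were Nt5e, which makes adenosine (-0.27), Anxa5, which covers phosphatidylserine (-0.07), and Pros1, the protein C cofactor protein S (-0.08). The thrombin receptor F2r had 243 ± 3.21 and 229 ± 6.75 CPM and Arhgef1 and Gna12, which act in its signalling, had log2 fold changes of 0.07 and 0.10, the second -0.0033 without control replicate 2. In that list of receptors and signalling genes 0 of 5 tested were called. F2rl1, a further protease-activated receptor, had 0 and 1 counts.

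The list of fibrinolysis inhibitors gave 0 calls in 4 tested (median log2 fold change -0.08), with Serpinb6a and Serpinb8 at -0.08 and -0.08. These had 0.04 and -0.0083 without control replicate 2. Serpinb2, an inhibitor of urokinase, had 28 and 16 counts over the groups and was not tested.

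Genes that bind or process plasminogen gave 0 calls in 5 tested. Eno1, an enzyme of glycolysis that also binds plasminogen at the surface, had a log2 fold change of -0.18 (edgeR adjusted p = 0.40), and -0.12 with an adjusted p of 0.0022 without control replicate 2. Lrp1, which clears activators bound to their inhibitors, had 0.32 ± 0.20 SE and the plasminogen receptor Plgrkt -0.13, values that were 0.07 and -0.03 without control replicate 2, and plasminogen itself (Plg) had 0 and 2 counts. Of 9 partners of the urokinase receptor 4 were tested and 0 called. The integrins Itgb1, Itga5 and Itga3 had log2 fold changes of -0.04, 0.02 and 0.09. Itga5 had -0.03 and Itga3 -0.0050 without control replicate 2, so that no direction can be given for either. Vtn, the matrix ligand vitronectin, had 0 and 1 counts, and Fpr1, a receptor of phagocytes, had 0 and 12 counts beside the leukocyte markers given above.

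The families of Anxa2 and S100a10 were looked at in the same fit. Of 8 other annexins 0 were called, with a median log2 fold change of -0.06, and Anxa8, Anxa3 and Anxa4 had -0.17, -0.11 and -0.06. The median was -0.02 without control replicate 2, Anxa3 had -0.02, and Anxa1 was called higher (0.13, edgeR adjusted p = 0.0048), as it was in voom with library weights. Of 6 tested S100 genes 0 were called, 5 had negative values and the median was -0.25, the size of the S100a10 value. S100a11, a calcium sensor that binds annexin A1, had 746 ± 27.6 and 625 ± 25.9 CPM (edgeR adjusted p = 0.091), S100a4 had a log2 fold change of -0.34 and S100a3 had -0.34. With the gene length offset the S100 median was -0.13 with 0 called. Without control replicate 2 it was -0.10 with S100a4, S100a6 and S100a11 called lower, and DESeq2 with 6 libraries called S100a4 and S100a11 lower.

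Factors known to act on the F3 and Plaur promoters included the only gene of the pathway lists called with 6 libraries. Junb, an AP-1 subunit, rose 1.63-fold, from 27.1 ± 1.09 in the controls to 44.2 ± 2.91 CPM with red blood cells (edgeR adjusted p = 0.0015), with each treated library above each control. Of 10 tested factors in the list 1 was called higher and 0 lower (median 0.06). The NF-kB subunit Nfkb1 had a log2 fold change of 0.30 ± 0.06 SE with an adjusted p of 0.051 and was called higher in DESeq2 (adjusted p = 0.0048), with the gene length offset (edgeR adjusted p = 0.0038) and without control replicate 2 (edgeR adjusted p = 9.1e-08). Klf6 had -0.17. There were 4 factors called higher without control replicate 2 (Fosl1, Junb, Nfkb1 and Rela) and 1 lower (Klf6), and the median of the list was -0.0048. The adjusted p in edgeR was then 0.0021 for Fosl1, 0.0098 for Rela and 0.023 for Klf6. Egr1 had 4 and 12 counts and was not tested, while the AP-1 subunits Jun and Fosl1, chosen after their values were seen, had 151 ± 1.72 and 147 ± 2.93 CPM and 146 ± 4.01 and 160 ± 2.59 CPM. The part of these factors in the values of the members was not tested.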

How the data were processed

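Poly(A) RNA of 3 control libraries and 3 libraries with red blood cells was sequenced; groups and replicate numbers come from the titles. Per the labels' protocols, the RNA came from a TRIzol extraction and the library kit was stranded. The build is GRCm39, per the submitters' processing notes; the aligner, the counting tool with its strand setting, and the annotation: not given in the sources used here. The authors deposited whole-number counts per gene without normalization, and FPKM values of the same genes, which are computed from the same reads and used here for levels between genes. Gene model length was taken from the ratio of both tables. Members and lists were chosen with earlier results of these data known.

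The test was that of edgeR 4.0.16 (R 4.3.3) on the counts: filterByExpr (minimum count 10, minimum total 15), which kept 11208 genes with 99.96% of the counts, TMM scaling, glmQLFit and glmQLFTest, two-sided, Benjamini-Hochberg adjustment over the genes tested, called under 0.05. CPM are relative to the library total. SE and 95% intervals are those of the log2 fold change. Floors and intervals cover counting error and library spread only, since reads carry no molecular identifiers. Ratios of FPKM were compared by exact permutation; 1 of the 5 pairs formed, and 1 gene of the lists, are not reported here. Text names the 9 members and, from each list, called genes or up to 3 with the smallest p. Untested genes are named with their counts where a member's role turns on them. Others (Fos, Jun, Fosl1, Rela, Anxa1, S100a6) were chosen after their values were seen. Like-patterned genes were to be named for called members only, of which there were 0. No other annotated mouse transcript matched a member over 100 bases at 90% identity (GENCODE vM21). The pipeline was tested on simulated data; the share of false calls there lay above the nominal level and above the limit first set for it, which was then raised, so adjusted p-values may be somewhat too small with 3 libraries a group.

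Alternatives were RLE or no scaling, DESeq2 1.42.0, limma 3.58.1 voom with and without library weights, other filters, erythroid genes left out, a gene length offset, a replicate block, FPKM with pseudocounts of 1 and 0.1, and each library left out.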

Additional observations from a re-analysis of the deposited data

How the results depend on the processing

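With 6 libraries 0 members, 130 higher and 34 lower genes were called. Members called numbered 1 in DESeq2 (60 lower genes), 2 in voom with library weights (362 higher, 289 lower) and 1 with the gene length offset (218 higher, 121 lower). With 1 library left out the members called ran from 0 to 3, the higher genes from 60 to 473 and the lower genes from 2 to 426; the highest of each came without control replicate 2. Same-numbered libraries deviated together little (correlations of -0.01, 0.04 and 0.06). For control replicates 2 and 3 the same-numbered treated library had the highest correlation, and for control replicate 1 it did not. Correlations this small among so few libraries cannot decide whether the numbers pair them. With the replicate block 0 members, 113 higher and 13 lower genes were called. The sign of F3, Thbd, Tfpi, Plat, Anxa2 and S100a10 held in 19 of 19 other settings. With 1 library left out Procr ran from -0.0077 (without RBC replicate 1; -0.0038 without control replicate 3) to 0.069 and Plaur from -0.13 (without control replicate 1) to 0.030 (without control replicate 2), and Plaur was 0.019 in voom with library weights. The cause of these shifts was not tested. Depth limits Plau, with 3 counts in all.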
